A study of Mus musculus with 2 samples.

Results

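The 5 microRNA loci Mir219a-1, Mir219a-2, Mir219b, Mir338 and Mir3065 were described in the cerebral cortex of young mice. They were chosen by name, as the miR-219 and miR-338 loci known from myelinating glia and the loci annotated on their opposite strands, and they are 5 of 2202 microRNA loci counted. The libraries were made from RNA shorter than 30 nt of the left cerebral cortex of female mice, aged 14 days, of the hybrid strain B6CASTF1/J, with 2 biological replicates in 1 group and no treatment or induced mutation in the labels. The label of replicate 1 mentions several females and that of replicate 2 a single female, both carry 1 donor record, and nothing in the labels says whether they are separate animals. The spread between them may therefore be technical in part.

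Oligodendrocytes are the glial cells that wrap axons in myelin, and they arise from dividing precursors in the weeks after birth. In mice, miR-219 and miR-338 rise as precursors leave the cell cycle and mature, and they are known to repress factors that hold precursors in an immature state, such as Sox6 and Hes5. A microRNA gene is read into a hairpin precursor, from which an arm of about the length of a small RNA read is cut, and bases 2 to 8 of that arm, the seed, pair with target mRNAs. Tissue RNA was measured, so fewer oligodendrocytes and less microRNA per cell cannot be told apart.

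The mature sequences are shown because they decide which reads could be counted at these loci. They come from RefSeq on GRCm38.p6, in which the hairpins of all 5 members were found with the same letters and positions as in GENCODE M21. Capitals mark the seed.
miR-219a-5p: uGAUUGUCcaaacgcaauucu
miR-219a-1-3p: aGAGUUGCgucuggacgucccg
miR-338-3p: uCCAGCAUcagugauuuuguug
miR-338-5p: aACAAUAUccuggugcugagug
miR-219b-5p: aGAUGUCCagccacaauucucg
miR-219b-3p: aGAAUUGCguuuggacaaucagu
miR-3065-5p: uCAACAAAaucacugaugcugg
For Mir219a-2 the table lists only miR-219a-5p and for Mir3065 only miR-3065-5p, with no form from the 3p arm of either hairpin. Reads were counted per locus, so which arm they came from was not measured. The 7 listed forms had 7 different seeds. No seed occurred in a mature form of any other locus among the 1679 mature names of the table. Only miR-219a-5p was encoded at more than 1 member locus, with the same letters at Mir219a-1 and Mir219a-2.

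Mir219a-2 and Mir219a-1 lie on different chromosomes, and their hairpins share a stretch of 22 bases that holds the whole of miR-219a-5p. Capitals mark that stretch in each hairpin.
Mir219a-2: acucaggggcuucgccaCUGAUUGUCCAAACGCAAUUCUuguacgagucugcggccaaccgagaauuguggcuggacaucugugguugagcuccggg
Mir219a-1: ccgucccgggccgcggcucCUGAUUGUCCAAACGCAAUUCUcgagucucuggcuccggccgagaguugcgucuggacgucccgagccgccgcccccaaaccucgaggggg
A read that lies wholly within the capitals matches both places. The deposited files put reads with several mapping places into a separate row, outside the count of any locus. That row took 40.6% of the reads of replicate 1 and 37.9% of those of replicate 2. A read of exactly miR-219a-5p, which lies wholly within the stretch, is therefore left out of the count of either locus. The counts at the miR-219a loci are counts of the remaining reads and cannot be taken as levels of miR-219a-5p. The hairpins of Mir338 and Mir3065 shared no stretch of 20 bases with a microRNA locus elsewhere.

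The loci of the other strand face these hairpins base for base. In the sequences below, capitals mark the 21 bases of miR-338-3p and of miR-3065-5p that face each other and are complementary.
miR-338-3p: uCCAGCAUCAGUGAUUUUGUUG
miR-3065-5p: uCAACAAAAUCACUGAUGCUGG
miR-219a-5p is likewise complementary over its 21 bases to miR-219b-3p, as the capitals show.
miR-219a-5p: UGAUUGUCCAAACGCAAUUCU
miR-219b-3p: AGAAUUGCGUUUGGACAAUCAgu
A read within the overlap of such a pair can be assigned to 1 of its loci only where the strand is used.

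**Figure D1:**
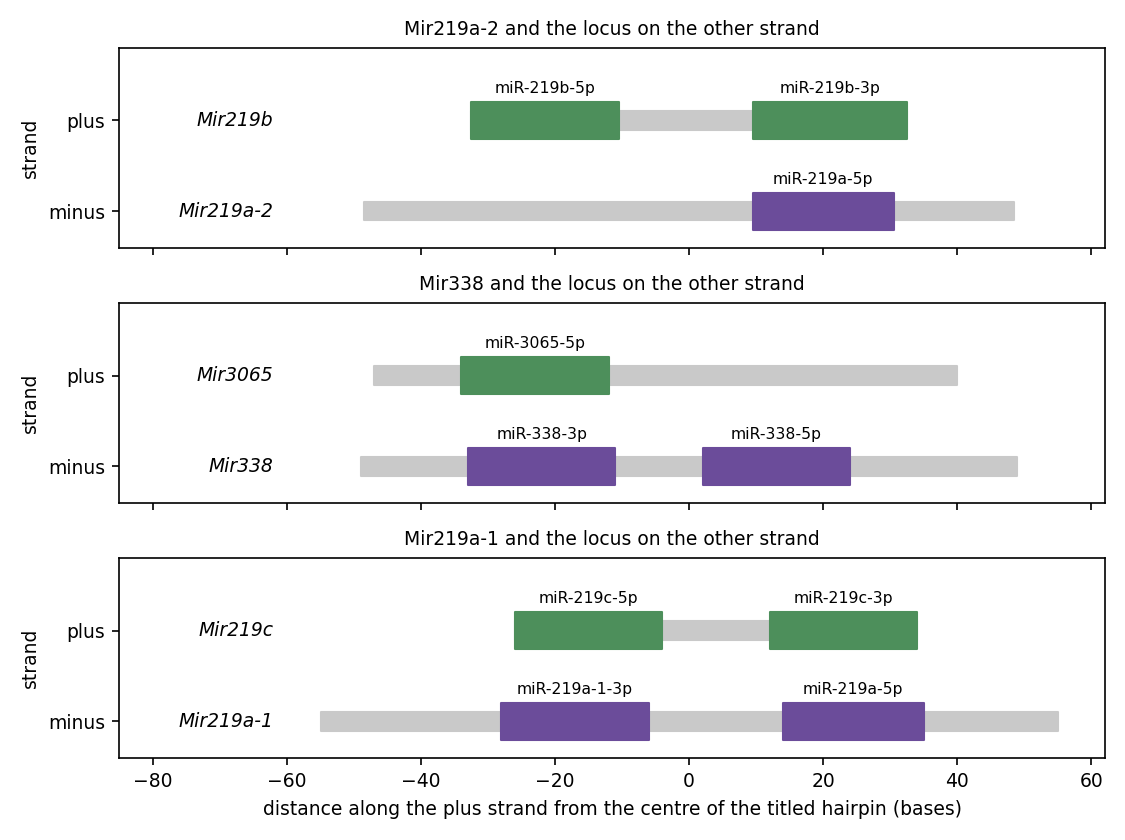
Positions of the hairpins (grey) and of the mature forms in the RefSeq table (coloured) on the plus and minus strands, as distance in bases from the centre of Mir219a-2, Mir338 or Mir219a-1. Mir219b lies within Mir219a-2 over 65 bases, Mir3065 within Mir338 over 87 bases and Mir219c within Mir219a-1 over 60 bases.

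On mm10, Mir219a-2 occupies chromosome 2 from 29845631 to 29845727 on the minus strand. No other gene than Mir219b overlaps it in GENCODE M21, and the nearest is Urm1, which codes for a ubiquitin-related modifier, 629 bases away on the plus strand. Mir219b occupies 29845647 to 29845711 on the plus strand. Mir338 lies on chromosome 11 from 120014765 to 120014862 on the minus strand, within an intron of Aatk, a kinase gene read from the same strand. Mir3065 occupies 120014767 to 120014853 of that chromosome on the plus strand. Mir219a-1 lies on chromosome 17 from 34024983 to 34025092 on the minus strand, overlaps an exon of the long non-coding transcript Gm26940 on the same strand, and is 303 bases from Ring1, a Polycomb gene. Its partner on the plus strand, Mir219c (34025012 to 34025071), is not among the members and is given where the strands are compared.

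The files hold whole read counts in 3 columns, 1 on the strand of each locus, 1 on the opposite strand and 1 without regard to strand. Replicate 1 held 7745369 reads and replicate 2 held 9627908, of which 2740332 (35.4%) and 3207941 (33.3%) fell on the strand of a microRNA locus. Levels are given per 1000000 of these reads (CPM), and since each read is a small RNA of its own they were not divided by length. At least 10 reads in each library, the minimum used for detection, were found at 389 loci. For a locus with 0 reads, counting allows for up to 3 reads, equal to a level of 1.09 CPM for replicate 1 and 0.935 CPM for replicate 2. All intervals are exact binomial 95% intervals and, like this floor, cover counting error only.

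Of the members, Mir219a-2 and Mir338 carried nearly all reads, Mir219a-1 was low, and the opposite-strand loci Mir219b and Mir3065 were at or near 0. Mir219a-2 had 9151 reads in replicate 1 and 2736 in replicate 2, or 3339 CPM (interval 3271 to 3408) and 853 CPM (821 to 885). Its mean was 2096 ± 1758 CPM (SD, n = 2), place 76 of the 2202 loci. Mir338 had 2529 and 1967 reads, or 923 CPM (887 to 960) in replicate 1 and 613 CPM (586 to 641) in replicate 2. It averaged 768 ± 219 CPM (SD, n = 2), place 116. Both were higher in replicate 1, Mir219a-2 by the wider margin.

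Mir219a-1, which encodes the same miR-219a-5p as Mir219a-2, had 35 reads in each library. Its levels were 12.8 CPM (replicate 1) and 10.9 CPM (replicate 2), with a mean of 11.8 ± 1.32 CPM (SD, n = 2) at place 317. Of the reads counted at both miR-219a loci, Mir219a-1 held 0.381% (interval 0.266 to 0.530%) in replicate 1 and 1.26% (0.881 to 1.75%) in replicate 2. These shares leave out all reads within the shared stretch, so how much miR-219a-5p each locus gave was not measured. Mir3065 had 0 reads in replicate 1 and 4 in replicate 2 (1.25 CPM). Mir219b had 0 reads in both libraries, so that only the limits of 1.09 and 0.935 CPM given above can be stated for it. Of the 5 members 3 were detected by the minimum of 10 reads, beside 389 of all 2202 loci.

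Within each library the order was Mir219a-2, Mir338, Mir219a-1, with the opposite-strand loci last. Mir338 did not overlap Mir219a-1 in level, with 613 to 923 CPM against 10.9 to 12.8 CPM. Mir219a-2 and Mir338 did overlap across the libraries, since Mir219a-2 in replicate 2 (853 CPM) was below Mir338 in replicate 1 (923 CPM). Their mean levels therefore did not differ beyond the spread of Mir219a-2. Within a library, where depth and scaling cancel, Mir219a-2 had 3.62 times the reads of Mir338 in replicate 1 (interval 3.46 to 3.78) and 1.39 times in replicate 2 (1.31 to 1.47). What does not cancel is that reads within the stretch shared with Mir219a-1 are missing at Mir219a-2. Mir338 shares no such stretch, so these are ratios of counted reads.

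Together the members held 11715 reads in replicate 1 and 4742 in replicate 2. This was 0.428% (interval 0.420 to 0.435%) and 0.148% (0.144 to 0.152%) of the reads assigned to loci, a mean of 0.288 ± 0.198% (SD, n = 2). Mir219a-2 supplied 78.1% of the members' reads in replicate 1 and 57.7% in replicate 2.

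The 3 columns gave very different pictures of these loci. On the strand of the locus, Mir219a-2 had 9151 and 2736 reads, against 0 and 0 on the opposite strand and 0 and 1 in the column without strand. Mir338 had 2529 and 1967 reads on its own strand, against 0 and 4 on the opposite strand and 0 in both libraries without strand. Without strand, these abundant loci held at most 1 read in a library.

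For the opposite-strand partners the picture was the mirror image. Mir219b had 0 reads on its own strand in both libraries, against 9151 and 2735 in the opposite-strand column, the count of Mir219a-2 in replicate 1 and 1 read fewer than it in replicate 2. Mir3065 had 0 and 4 reads on its own strand, against 2529 and 1967 in the opposite-strand column, the same numbers as Mir338 on its own strand. The single read of Mir219a-2 in replicate 2 that the column without strand assigned is also the number by which Mir219b's opposite-strand count fell short, and Mir219a-2 extends past Mir219b at both ends. Mir219a-1 had 35 and 35 reads on its own strand, 2 and 0 on the opposite strand and 0 and 0 without strand. The 2 reads of replicate 1 were those counted on the strand of Mir219c, which had none in replicate 2.

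**Figure D2:**
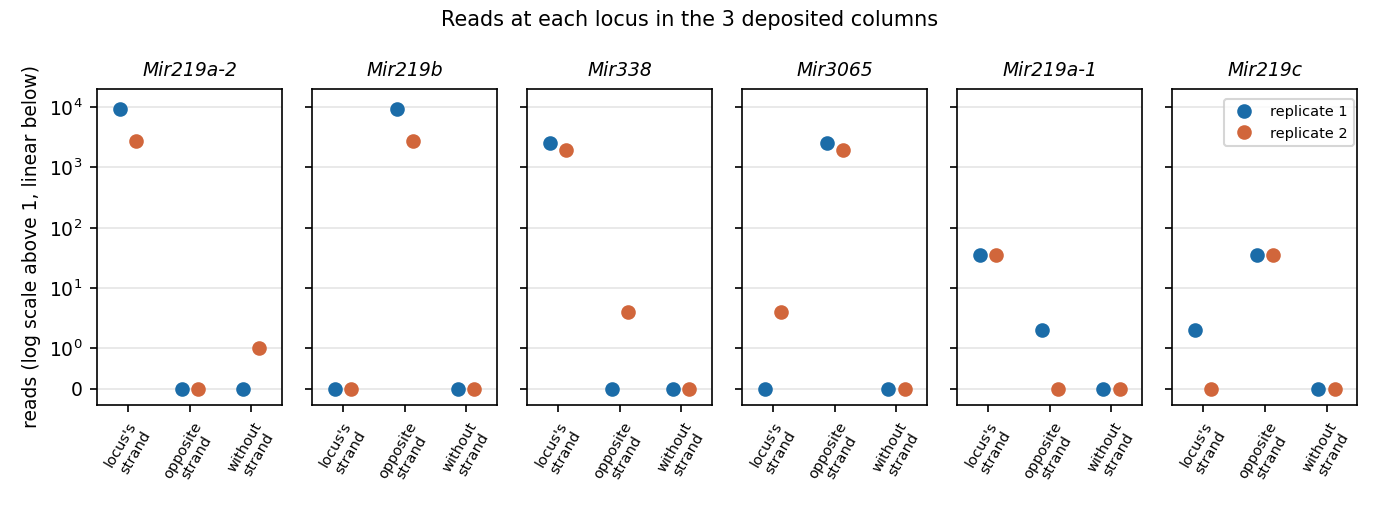
Reads (log scale above 1, linear below) of each member and of Mir219c in the columns for the locus's strand, the opposite strand and without strand, 1 point per library. Mir219a-2 and Mir338 hold 1967 to 9151 reads on their own strand and at most 4 in the other columns, and Mir219b and Mir3065 show the reverse, with 1967 to 9151 reads in the opposite-strand column and at most 4 in the others.

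The reads that the column without strand set aside as ambiguous were accounted for exactly by loci that overlap on opposite strands. GENCODE M21 holds 32 such pairs, made of 64 loci. They held 190385 reads on their own strands in replicate 1 and 216874 in replicate 2, of which the column without strand assigned 15 and 27. The difference, 190370 and 216847 reads, equals the row of ambiguous reads of that column in each library. The 3 pairs that contain a member made up 11717 of the ambiguous reads in replicate 1 (6.15%) and 4741 in replicate 2 (2.19%).

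Among the 26 pairs with at least 20 reads over both libraries, 23 (88.5%) had no read assigned without strand in either library. The pairs of Mir338 and Mir219a-1 were among these, whereas that of Mir219a-2 had its single read in replicate 2. The loss of reads at the miR-219 and miR-338 loci was therefore shared with nearly all other pairs. No read on the less abundant strand was found in 18 of the 26 pairs (69.2%), the pair of Mir219a-2 and Mir219b included. By the limit of 3 reads, a count of 0 at Mir219b allowed up to 0.0328% of the reads of its pair in replicate 1 and 0.110% in replicate 2. By reads, the pair of Mir219a-2 was 8th and that of Mir338 was 11th of the 32.

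Mir3065 held 4 of 1971 reads of its pair in replicate 2, or 0.203% (interval 0.0553 to 0.519%). In replicate 1 it held 0 of 2529, for which the limit of 3 reads allows up to 0.119% and the exact interval up to 0.146%. At the loci outside pairs, opposite-strand reads made up 0.00525% (replicate 1) and 0.00361% (replicate 2), and they were found at 36 and 22 loci. The share of Mir3065 was above that level in replicate 2 only, and rests on 4 reads in 1 library. In the pair of Mir219a-1, Mir219c held 2 of 72 reads over both libraries. The 5 pairs with most reads, those of Mirlet7e, Mir126a, Mir191, Mir409 and Mir378a, had 0 reads on the less abundant strand in either library. Among the 26 pairs, the largest share on a less abundant strand was at Mir3074-1, which held 48 reads in replicate 1 and 38 in replicate 2 beside 115 and 157 of Mir24-1; this pair was named after its values were seen.

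**Figure D3:**
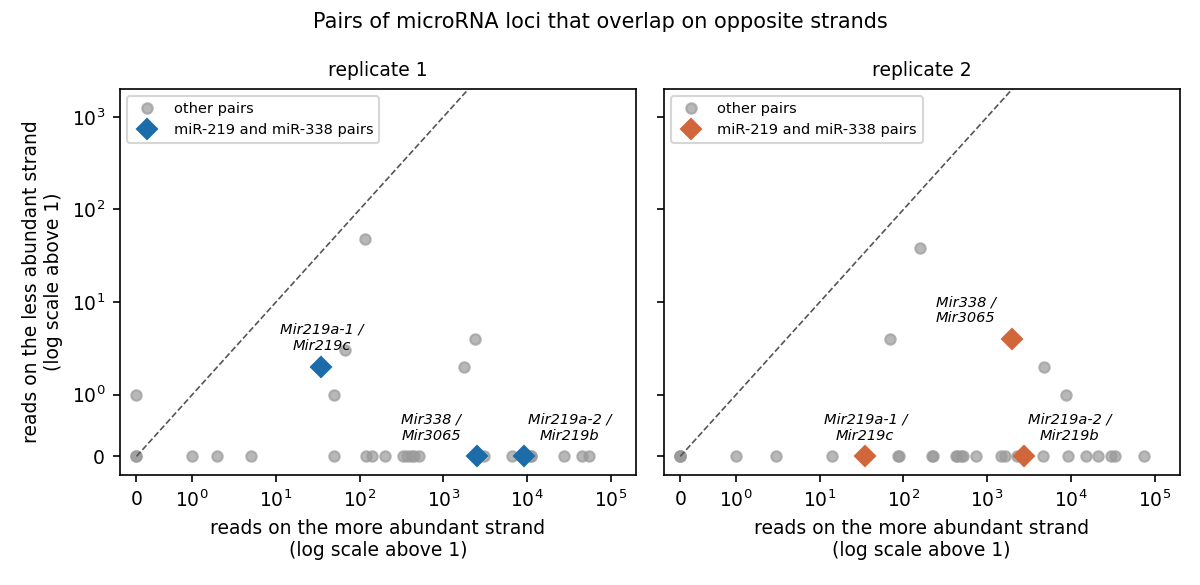
Reads on the more abundant (x axis) and less abundant (y axis) strand of the 32 pairs of overlapping microRNA loci, 1 panel per library, both axes logarithmic above 1, with equality dashed. The pairs with a member (diamonds) have 0 to 4 reads on the less abundant strand, beside 35 to 9151 on the other.

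The libraries differed at Mir219a-2 more than at most loci. With reads scaled by the trimmed mean of M values (TMM), the log2 ratio of replicate 1 over replicate 2 was 2.14 at Mir219a-2 (interval 2.08 to 2.20), a 4.41-fold difference. At Mir338 it was 0.76 (0.68 to 0.85), or 1.70-fold. At Mir219a-1, with 35 reads in each library, it was 0.40 and its interval, from −0.32 to 1.12, included no difference. All 3 detected members were thus higher in replicate 1 by their ratio, Mir219a-1 through the scaling alone. Of the 3, 1 was at least 2-fold apart. By sign, 196 of all 389 detected loci were higher and 193 lower in replicate 1.

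Over all 389 detected loci, 44 (11.3%) were at least 2-fold apart, of which 19 (4.88%) were higher and 25 (6.43%) lower in replicate 1. The log2 ratio had a median of 0.0098 and an SD of 0.70 over these loci. Mir219a-2 was the 5th of 389 by this ratio and Mir338 the 32nd, so Mir338 lay about 1 SD from the median. Scaled by the total of assigned reads instead, the median of all detected loci was −0.16 and the ratios were 1.97 at Mir219a-2 and 0.59 at Mir338. With 1 library on each side no p-value was computed. A difference of this kind between 2 libraries of 1 group describes the libraries, and the files do not show whether it came from the animals or the preparation.

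**Figure D4:**
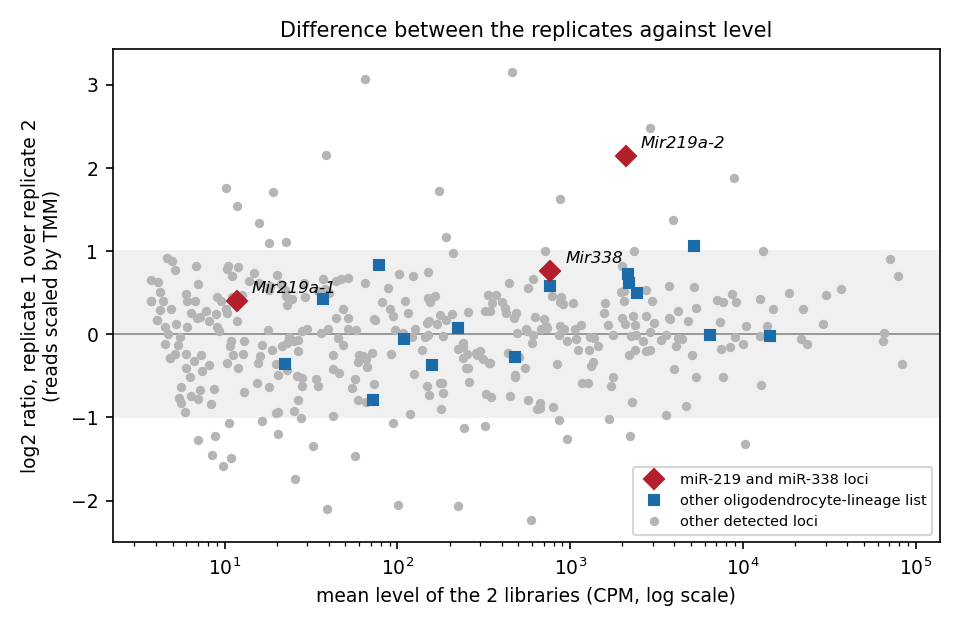
Log2 ratio of replicate 1 over replicate 2 (TMM-scaled reads) against the mean level (CPM, log scale) of the 389 detected loci, with differences under 2-fold shaded. Mir219a-2 (2.14) lies outside the shaded band, while Mir338 (0.76) and Mir219a-1 (0.40) lie within it.

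The loci with the most similar ratio to Mir219a-2, among those averaging at least 100 reads over the 2 libraries, were Mir103-2 (2.16), Mir298 (1.88) and Mir107 (2.48). Mir107 had 13196 reads in replicate 1 and 3122 in replicate 2, Mir298 37382 and 13423, and Mir103-2 170 and 50. Nearest to Mir338 were Mir375 (0.74), Mir17 (0.73) and Mir155 (0.72). With 2 libraries a similar ratio says no more than that these loci differed by about the same factor.

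In mean level, the loci next to Mir219a-2 were Mir138-2 (2188 ± 470 CPM) and Mir17 (2170 ± 582 CPM) above it, and Mir187 (2059 ± 43.3 CPM) and Mir1839 (2055 ± 234 CPM) below it (SD, n = 2). All these gaps were smaller than the spread of Mir219a-2, so its place among them was not resolved. Next to Mir338 were Mir150 (793 ± 389 CPM) and Mir28a (784 ± 110 CPM) above it, and Mir146 (763 ± 153 CPM) and Mir673 (729 ± 34.3 CPM) below it, again within its spread.

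Other microRNAs described in the oligodendrocyte lineage lay on both sides of equal levels in the libraries. Of the 16 loci on this list 15 were detected, beside 389 of all 2202 loci. Of the 15 detected, 1 was at least 2-fold higher in replicate 1 and none was 2-fold lower. The median log2 ratio was 0.073, beside 0.0098 over all detected loci. By sign, 8 were higher and 7 lower in replicate 1, which became 7 higher and 8 lower when scaled by the total of assigned reads. Over all detected loci the split was 196 higher and 193 lower, which became 149 higher and 240 lower by that scaling. The list was led by Mir23b, of a family described as limiting lamin B1 in oligodendrocytes, with 13380 CPM (replicate 1) and 15243 CPM (replicate 2). Mir23a had 5997 and 6784 CPM. These loci share a stretch of 20 bases with each other, so reads that mapped to both are missing from their levels. Their log2 ratios, −0.016 and −0.0054, lay close to the median of all detected loci.

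Mir138-1 encodes a microRNA that was described, beside miR-219 and miR-338, as enriched in maturing oligodendrocytes, and that neurons also express. It had 18603 reads in replicate 1 and 11725 in replicate 2, or 6789 and 3655 CPM, with a log2 ratio of 1.07. This was the locus past 2-fold, and with reads scaled by the total of assigned reads no locus of the list was 2-fold apart. Mir138-2 had 2521 and 1856 CPM with a ratio of 0.61. Both share a stretch of 20 bases with each other, so their counts too leave out reads that mapped to both.

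Mir7b, of a family described in the specification of oligodendrocyte precursors, had 2712 CPM in replicate 1 and 2161 CPM in replicate 2. Mir7-1 of the same family had 95.6 and 60.2 CPM, with a log2 ratio of 0.84. Mir17, of a cluster that in mice drives precursor proliferation, had 2582 and 1759 CPM. The detected loci of the list ranged from −0.79 to 1.07 in log2 ratio, all below the 2.14 of Mir219a-2.

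**Figure D5:**
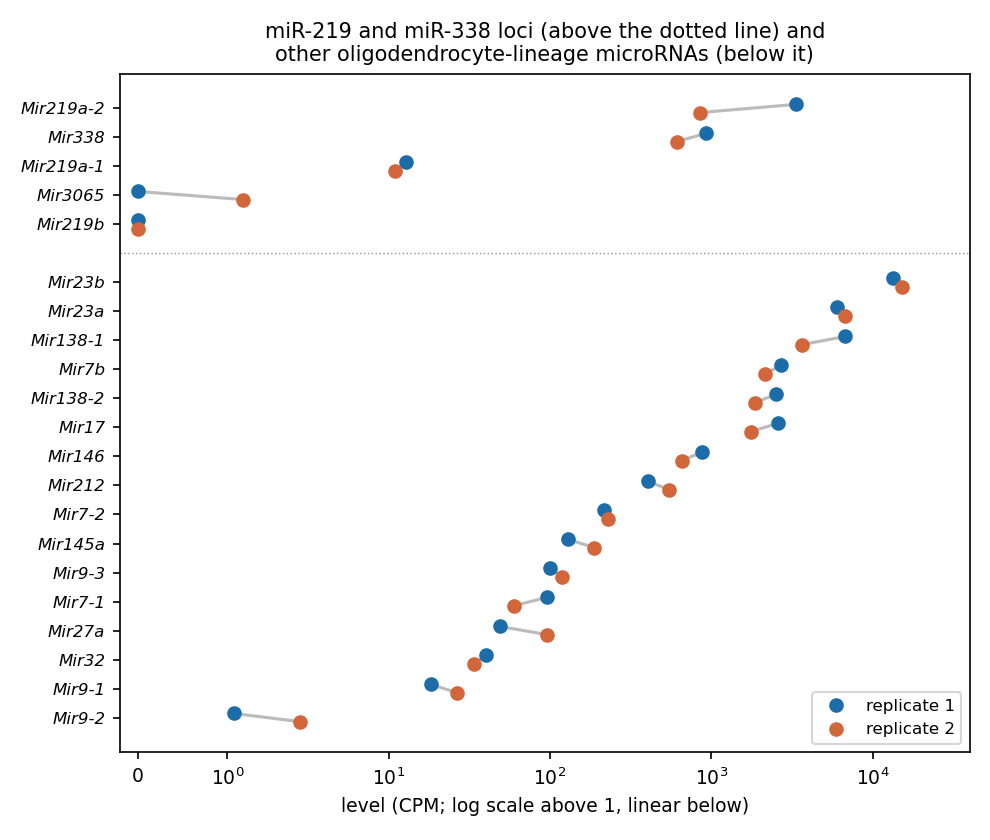
Level (CPM, log scale above 1) of the 5 members, above the dotted line, and of 16 other microRNA loci described in the oligodendrocyte lineage, below it, with 1 point per library. Among the detected loci shown, the libraries lie farthest apart at Mir219a-2, with 3339 CPM in replicate 1 and 853 CPM in replicate 2.

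Markers of other cell types differed between the libraries as well, in both directions, and their part in the difference at Mir219a-2 was not tested. Sums and their ratios are of CPM, scaled by the total of assigned reads, whereas log2 ratios and their medians are TMM-scaled unless stated. The median log2 ratio of all detected loci was −0.16 by the former scaling and 0.0098 by the latter. The summed level of the 5 members was 4275 CPM (replicate 1) and 1478 CPM (replicate 2), a ratio of 2.89. The endothelial and mural list (3 of 4 detected, Mir126b at 0) summed to 21215 and 13607 CPM, a ratio of 1.56, led by Mir126a with 45876 and 30124 reads and Mir143 with 11906 and 12922 reads. Mir126a alone held 16741 and 9390 CPM of these sums. By log2 ratio 2 of the detected loci of this list were higher and 1 lower in replicate 1, with a median of 0.28. The erythroid list (3 of 3 detected) summed to 976 and 585 CPM, a ratio of 1.67, led by Mir451a with 2489 and 1637 reads and Mir144 with 119 and 172 reads. Mir451a alone held 908 and 510 CPM of these sums. Again 2 loci were higher and 1 lower in replicate 1 by log2 ratio, with a median of 0.36.

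Other lists summed to less CPM in replicate 1, although the loci within them went both ways by TMM-scaled ratio. The neuron list (8 of 12 detected) had 33386 CPM in replicate 1 and 42518 CPM in replicate 2, led by Mir128-1 with 14732 and 48629 reads and Mir132 with 26822 and 27038 reads. Mir128-1 alone held 5376 and 15159 CPM of these sums. By log2 ratio 3 of the detected loci were higher and 5 lower in replicate 1, with a median of −0.12. The ratios ranged from −1.32 at Mir128-1 to 1.07 at Mir138-1. The Mir124a loci of the list had 0 to 12 reads, and each shares a stretch of 20 bases with the others. The Mir128, Mir138 and Mir9 loci likewise share such a stretch within each family. Reads that mapped to several of them are therefore missing from the counts, while Mir132 and Mir137 have no such stretch. The microglial and leukocyte list (4 of 6 detected, Mir142b at 0) had 1563 and 1888 CPM, led by Mir150 with 1419 and 3426 reads and Mir146 with 2388 and 2102 reads. By log2 ratio 2 of its detected loci were higher and 2 lower in replicate 1, with a median of 0.17 that became −0.0025 when scaled by the total of assigned reads. The log2 ratios were −0.87 at Mir150, 0.58 at Mir146, 0.72 at Mir155 (332 and 265 reads) and −0.24 at Mir142. Mir223, at 3 reads in replicate 1 and 45 in replicate 2, was not detected by the minimum and so has no ratio. Mir142 and Mir223 were named after their values were seen. Mir146 shares a stretch of 20 bases with Mir146b, so reads that mapped to both are missing from its count. The choroid plexus and ependyma list (4 of 7 detected, Mir449b at 0) had 967 and 1123 CPM, led by Mir204 with 1219 and 2864 reads and Mir449a with 698 and 408 reads. Here too 2 detected loci were higher and 2 lower, but the median log2 ratio was 0.43. Both higher loci, Mir449a (1.17) and Mir34c (1.72, from 712 and 284 reads, named after its values were seen), were over 2-fold apart. None was 2-fold lower, although 1 was when scaled by the total of assigned reads. No mRNA was measured, so the label of oligodendrocyte loci could not be checked against myelin genes.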

How the data were processed

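The authors deposited 1 file of whole read counts per library, with 3 unnamed columns and 4 rows that name no gene, made on mm10 with the GENCODE M21 annotation, per the file list deposited with them. How reads were trimmed, aligned and counted is not given in the sources used here. The columns were told apart by their values: 1 assigned 2740332 and 3207941 reads to loci and was taken as the strand of the RNA, 1 assigned 190504 and 216955 and was taken as the opposite strand, and 1 assigned 2550096 and 2991202 without strand.

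Rows naming no gene stayed out of library sizes. On the RNA strand they were unmapped (18.1% and 22.8% of reads), mapped to several places (40.6% and 37.9%), on no locus (5.93% and 6.03%) and ambiguous (0 and 0). All 2202 identifiers matched GENCODE M21. CPM, shares and ratios were computed here. Ratios used TMM from edgeR 4.0.16, a pseudocount of 0.5 reads and loci with at least 10 reads in each library. Size factors from DESeq2 1.42.0 were an alternative. Intervals came from SciPy 1.17.1. The ratio was tested on simulated counts that carried counting error only, without spread between replicates. That test checks the computation and says nothing of the spread between the real libraries. Alternatives were other scalings, columns, minimums and pseudocounts, and each replicate left out.

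The members and lists were chosen with earlier results of these data known. Named loci were the members, up to 5 of the lineage list by level and 2 by ratio, the 5 pairs with most reads, loci alike in level or ratio, and up to 2 markers of each list. Mir7a-1 and Mir7a-2 of the lineage list were matched to Mir7-1 and Mir7-2 through RefSeq synonyms. The lineage and cell type lists share Mir138, Mir9, Mir145a and Mir146 loci.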

Additional observations from a re-analysis of the deposited data

How the results depend on the processing

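The direction of the ratio at Mir219a-2 and Mir338 was higher in replicate 1 under every scaling, minimum and pseudocount run. Mir219a-1 had 35 reads in each library, so its ratio, also higher in replicate 1, followed from the scaling alone. The interval of that ratio included no difference. The ratio at Mir219a-2 was 1.97 with totals of assigned reads and 2.06 with all reads of the library, and at Mir338 0.59 and 0.68. The count of loci at least 2-fold apart was 74 with at least 5 reads, 25 with at least 50 and 274 with no minimum, against 44. Mean levels depended on the column. Without strand they were 0.156 CPM at Mir219a-2, 0 at Mir338 and 0 at Mir219a-1. On the opposite strand they were 2096 CPM at Mir219b, 768 CPM at Mir3065, 0.365 CPM at Mir219a-1, 0.623 CPM at Mir338 and 0 at Mir219a-2. Per 1000000 reads of the whole library, mean levels were 733 at Mir219a-2, 265 at Mir338 and 4.08 at Mir219a-1. Leaving out a replicate gave 853 to 3339 CPM at Mir219a-2 and 613 to 923 CPM at Mir338. Members' ratios could not be computed without strand, where their counts were 0 or 1, nor for Mir219a-1 with at least 50 reads. Counts under 5 limit what can be said of Mir3065 and Mir219b. No paired analysis was possible because there is 1 group.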
